A study of Mus musculus with 38 samples.

Results

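The 10 genes described here encode the zinc-dependent histone deacetylases (HDACs) of classes I and II, the proteins that panobinostat is made to inhibit. They are Hdac1, Hdac2, Hdac3 and Hdac8 of class I, Hdac4, Hdac5, Hdac7 and Hdac9 of class IIa, and Hdac6 and Hdac10 of class IIb. They were chosen by name and not by their values, and all 10 were found among the 55487 genes of the count tables. Each of the 10 passed the filter on low counts in all 5 single-cell-type fits.

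HDACs take acetyl groups off lysines, on histone tails and on many other proteins, and the loss of histone acetylation goes with a closed and less transcribed chromatin. Class I enzymes sit mainly in the nucleus, where Hdac1 and Hdac2 are the catalytic pair of the Sin3, NuRD and CoREST corepressors and Hdac3 is the enzyme of the NCoR/SMRT corepressor. Class IIa proteins have little catalytic activity of their own, bind MEF2 transcription factors, and move between nucleus and cytoplasm on 14-3-3 proteins. Hdac6 deacetylates tubulin in the cytoplasm and Hdac10 acts on polyamines, and in macrophages and microglia HDACs are known as regulators of inflammatory transcription.

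RNA was sequenced from 38 libraries in 18 groups of mouse cells. BV2 is an immortalised microglial line, GL261 is a glioma line, here with a stably expressed pEGFP-N1 plasmid, and BMDM are primary macrophages differentiated from the bone marrow of wild-type mice. Normoxic cells spent 16 h at 21% oxygen, and hypoxic cells spent 16 h below 0.1% oxygen. What is named the first experiment here grew each of the 3 cell kinds alone (monoculture) and in direct co-culture. Co-cultures held 2 GL261 cells for every BV2 cell or as many GL261 cells as BMDM (ratio 1). Its BMDM libraries were counted apart from those of BV2 and GL261, and the titles name no shared experiment. Cells were fixed with glyoxal (3%) before RNA was taken for poly(A) libraries from a stranded kit, and how co-cultured cells were separated is not given in the sources used here. In the second experiment BV2 and BMDM received the solvent dimethyl sulfoxide (DMSO) in normoxia, DMSO in hypoxia, or 10 nM panobinostat in hypoxia. Each group had 2 libraries, apart from the normoxic and hypoxic BMDM co-cultures with 3. Each of BV2 and GL261 is a single line. The labels call the replicates biological for 16 libraries, those of BV2 and GL261 in the first experiment. They say nothing of that kind for the others, so that p-values there measure the spread between these libraries, which may be technical. In bulk RNA, fewer cells of a type and less RNA per cell cannot be told apart.

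Library totals ran from 9634700 to 27238933 counts. Of 11 macrophage markers, 11 exceeded a level of 1 CPM (counts relative to the library total, in the field's usual unit) in normoxic BV2 and BMDM, and 1 did in GL261 alone. Of 5 markers that set microglia apart from marrow macrophages, 3 exceeded 1 CPM in BV2 alone at either oxygen level, and Sall1 and Siglech were at 0. Sall1 and Siglech were also at 0 in BMDM alone, where 3 of the 5 exceeded 1 CPM in normoxia and 2 in hypoxia. GL261 cells expressed 8 of 10 glial lineage markers, with Egfr and Fabp7 under 1 CPM. Co-cultured libraries held a small share of the partner's RNA, 0.57% to 2.36% in BV2, 0.22% to 0.92% in GL261 and 1.29% to 6.28% in BMDM. The BMDM share was read against GL261 libraries that were counted apart from the BMDM libraries. BMDM of the second experiment stood apart. The summed level of the fibroblast markers Col1a1, Col1a2, Dcn and Lum was 19065 to 19477 CPM with DMSO in normoxia, 2521 to 13180 CPM with DMSO in hypoxia and 8548 to 13958 CPM with panobinostat. In first-experiment BMDM that sum was 58.5 to 538.7 CPM. The summed macrophage markers of the second-experiment BMDM were 5613 to 7743, 2305 to 3752 and 658 to 1780 CPM in the same order of groups. Lum was under 1 CPM in every BMDM group, so nearly all of these sums came from Col1a1, Col1a2 and Dcn. The part of this marker RNA in the results on second-experiment BMDM was not tested.

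Promoter windows were read to show what the start regions of the genes that moved with oxygen hold. RefSeq windows on GRCm38.p6, from 250 bases before to 50 bases after a transcript start, were read for 7 of the 10 genes. No window was read for Hdac1, Hdac3 or Hdac10, so the counts of HDAC windows leave these genes out. The windows read numbered 11 in all. They were searched on both strands for ACGTG and GCGTG, the core letters bound by hypoxia-inducible factors. Of 32851 such windows over all genes, 19.62% held ACGTG, 32.39% held GCGTG and 43.77% held either. Of the 11 HDAC windows, 3 held a match, 1 each of Hdac7, Hdac5 and Hdac6. These 3 are shown with the window of Hdac2, which holds none, each 5′ to 3′ on the gene's own strand, with the matches in capitals. A match on the other strand reads CACGT or CACGC, and the ACGTG matches of both strands overlap as CACGTG in the Hdac5 window.
Hdac7: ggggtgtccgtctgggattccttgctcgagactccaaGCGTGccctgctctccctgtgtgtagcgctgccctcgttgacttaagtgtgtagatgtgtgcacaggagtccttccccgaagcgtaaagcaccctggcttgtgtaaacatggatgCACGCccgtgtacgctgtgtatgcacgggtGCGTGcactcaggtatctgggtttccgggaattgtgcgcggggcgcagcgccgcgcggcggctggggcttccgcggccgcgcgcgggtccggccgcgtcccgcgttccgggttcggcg
Hdac5: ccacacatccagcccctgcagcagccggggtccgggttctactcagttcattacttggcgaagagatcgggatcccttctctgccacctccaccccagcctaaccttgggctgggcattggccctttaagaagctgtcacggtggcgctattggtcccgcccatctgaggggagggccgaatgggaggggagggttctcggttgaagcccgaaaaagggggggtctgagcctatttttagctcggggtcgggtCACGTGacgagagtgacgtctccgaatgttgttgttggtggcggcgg
Hdac6: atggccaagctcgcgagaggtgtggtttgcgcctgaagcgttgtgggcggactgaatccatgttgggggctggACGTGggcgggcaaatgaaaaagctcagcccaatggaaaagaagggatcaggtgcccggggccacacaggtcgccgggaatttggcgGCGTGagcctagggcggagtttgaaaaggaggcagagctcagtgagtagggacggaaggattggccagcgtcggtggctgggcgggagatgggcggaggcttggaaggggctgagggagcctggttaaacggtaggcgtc
Hdac2: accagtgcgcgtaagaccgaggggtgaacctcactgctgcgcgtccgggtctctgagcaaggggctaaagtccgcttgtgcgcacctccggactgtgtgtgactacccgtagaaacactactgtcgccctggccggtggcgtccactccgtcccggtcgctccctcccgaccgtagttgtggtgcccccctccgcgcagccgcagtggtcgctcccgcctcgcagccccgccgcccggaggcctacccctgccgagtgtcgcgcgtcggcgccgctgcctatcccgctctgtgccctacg
The Hdac7 window, 1 of 4 for this gene, lies at chr15:97831718-97832017 on the minus strand and holds 3 GCGTG matches. The Hdac5 window at chr11:102230123-102230422 on the minus strand holds 2 ACGTG matches, 1 per strand. The Hdac6 window at chrX:7947840-7948139 on the minus strand holds 1 match of each motif. The Hdac2 window lies at chr10:36974294-36974593 on the plus strand. A match describes letters in a window, and binding was not measured in these files.

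To compare levels between genes, CPM scaled by trimmed-mean (TMM) factors was divided by the length of each gene's merged exons in kilobases (kb), from GENCODE M21 on GRCm38. In normoxic BV2 alone, Hdac1 was the most abundant at 29.9 ± 1.5 CPM per kb (SD, n = 2). Hdac2 followed at 18.9 ± 0.40, Hdac3 at 16.5 ± 0.51 and Hdac5 at 12.8 ± 0.75 CPM per kb, and these neighbours in the order did not overlap. Hdac7 was the lowest at 0.16 ± 0.083 CPM per kb. In normoxic GL261 alone, Hdac2 at 52.8 ± 0.90 CPM per kb and Hdac1 at 49.6 ± 4.0 CPM per kb overlapped at the top, and Hdac9 was the lowest at 0.46 ± 0.097 CPM per kb. In normoxic BMDM alone, Hdac5 at 27.8 ± 1.4 CPM per kb and Hdac1 at 27.5 ± 0.0045 CPM per kb overlapped at the top, and Hdac9 was again the lowest at 0.56 ± 0.13 CPM per kb. In normoxic monoculture the leading gene was therefore a class I member in both lines. In BMDM a class IIa member shared the top with one of class I. In hypoxic monoculture Hdac5 led without overlap in BV2, at 21.2 ± 1.4 CPM per kb against 19.5 ± 0.53 for Hdac1. It also led in hypoxic BMDM alone, at 32.1 ± 3.5 against 19.8 ± 0.39 for Hdac1. In hypoxic GL261 alone Hdac2 led at 45.6 ± 1.2 CPM per kb.

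The balance of the classes moved with oxygen. Class IIa made up 19.0% ± 0.52 of the summed CPM per kb of all 10 genes in normoxic BV2 alone and 36.2% ± 0.90 in hypoxic BV2 alone (SD, n = 2 each). The class IIa share was 15.2% ± 0.71 and 26.0% ± 1.4 in GL261 alone, and 32.0% ± 0.066 and 47.9% ± 3.7 in BMDM alone. Class I made up 68.2% ± 0.72 in normoxia and 52.8% ± 1.1 in hypoxia in BV2 alone. The libraries of the 2 oxygen levels did not overlap in class IIa share in any of these 3 pairs of groups. These shares are descriptions without a test.

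**Figure D1:**
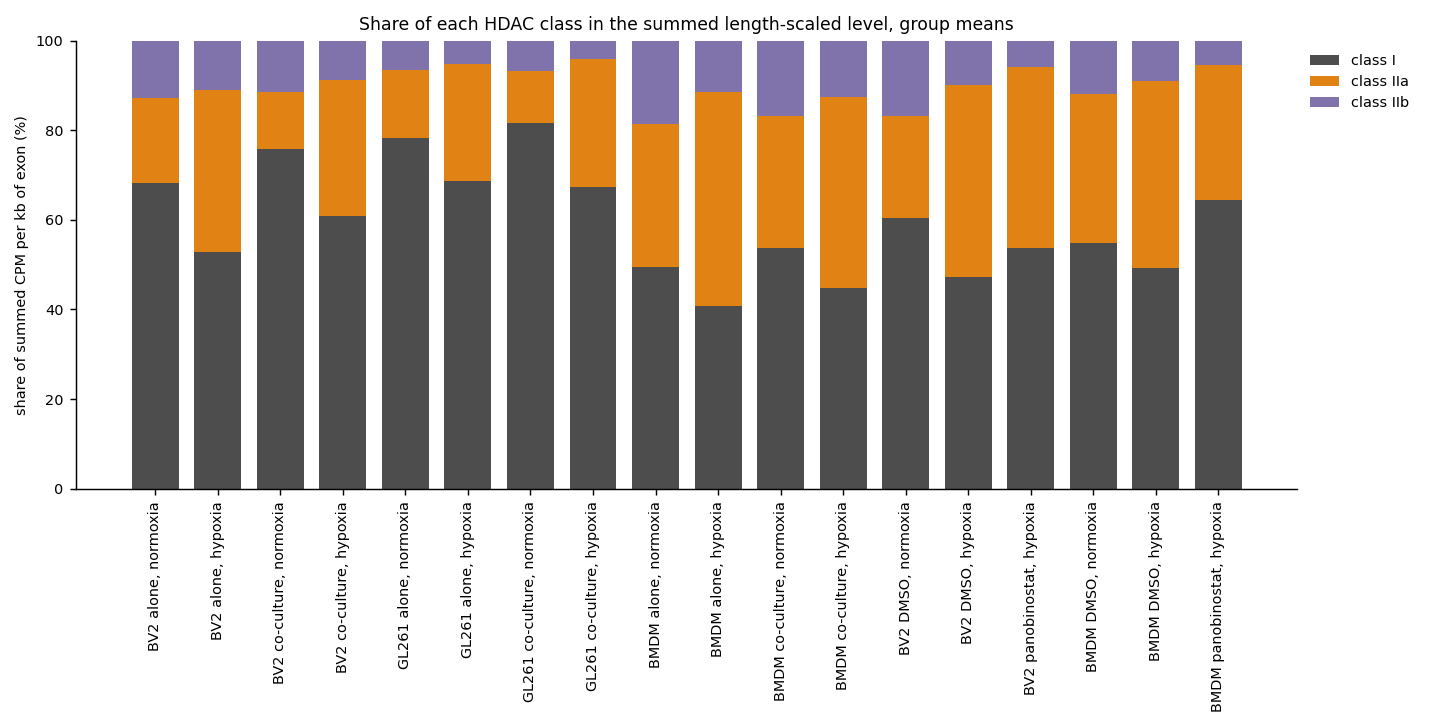
Stacked bars of the share of class I, class IIa and class IIb genes in the summed CPM per kb of exon (vertical axis, %) for each of the 18 groups (horizontal axis), as means over the 2 or 3 libraries of a group. The class IIa share is higher in hypoxia than in normoxia in each pair, for example 36.2% against 19.0% in BV2 alone.

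The effect of hypoxia was read in 8 comparisons that share no libraries. A gene was called where edgeR's quasi-likelihood test gave a Benjamini-Hochberg adjusted p under 0.05 over all genes tested. Such calls were common among all genes. The share called in either direction was 61.9% in BV2 alone, 67.3% in co-cultured BV2 and 37.5% in BV2 with DMSO. It was 44.6% in GL261 alone, 52.4% in co-cultured GL261, 23.9% in BMDM alone, 34.8% in co-cultured BMDM and 0.483% in BMDM with DMSO. Against these shares, 5, 8 and 4 of the 10 HDAC genes were called in the 3 BV2 comparisons, 5 and 8 in the 2 GL261 comparisons, and 5, 5 and 0 in the 3 BMDM comparisons. A count of members near the background share says nothing particular about HDAC genes, so the members are described one by one. As a check of the treatment, 6 of 6 hypoxia-induced genes (Vegfa, Slc2a1, Bnip3, Pdk1, Egln3 and Ankrd37) rose in BV2, GL261 and BMDM alone and in BV2 with DMSO. In BMDM with DMSO 0 of 6 were called, with a median log2 fold change of 2.85. There 72 of 14914 genes passed edgeR's test, and the common biological coefficient of variation was 0.381, against 0.0958 in first-experiment BV2.

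**Figure D2:**
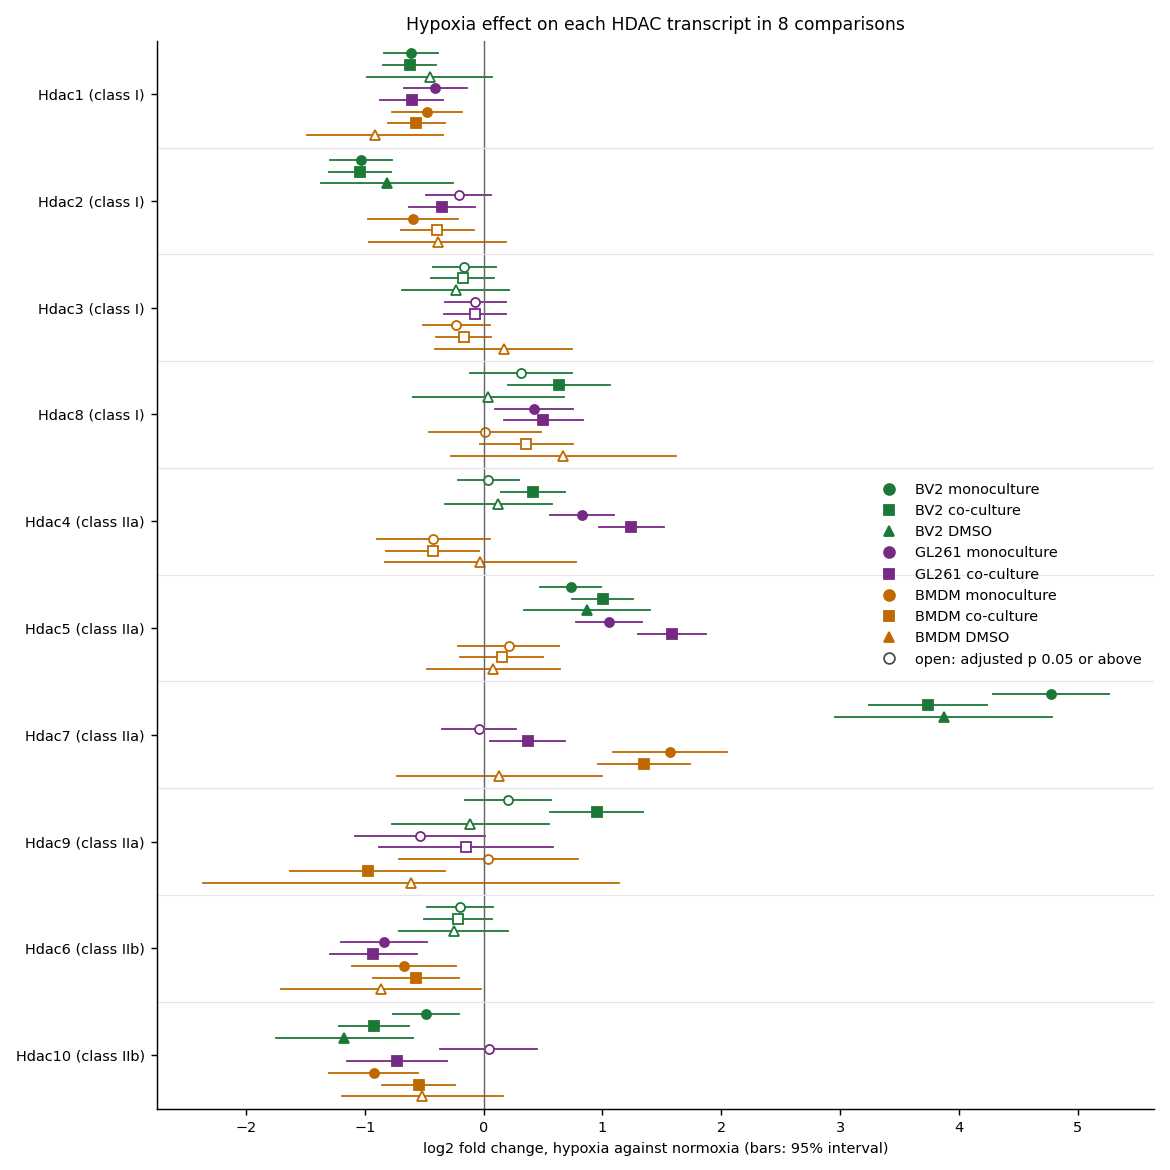
Log2 fold change of hypoxia against normoxia (horizontal axis) for each HDAC gene (vertical axis) in 8 comparisons, with 95% intervals as bars. Filled symbols passed edgeR's test at an adjusted p under 0.05 and open symbols did not. Hdac7 in BV2 lies between 3.74 and 4.78, and all 8 values of Hdac1 and of Hdac2 lie below 0.

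Among class I genes, Hdac1 and Hdac2 fell in hypoxia, Hdac8 rose in 3 comparisons and Hdac3 was called in none. Hdac1 (ENSMUSG00000028800, chr4:129516104-129542713, minus strand) was lower in 6 of the 8 comparisons, with log2 fold changes from -0.91 to -0.41 over all 8. In BV2 alone its normoxic libraries had 106.5 and 99.2 CPM and its hypoxic libraries 66.0 and 68.6 CPM. These groups did not overlap, and the log2 fold change was -0.61 ± 0.11 (SE; edgeR adjusted p = 9.8e-05). The falls of 0.41 ± 0.12 in GL261 alone (adjusted p = 0.0183) and 0.48 ± 0.13 in BMDM alone (adjusted p = 0.0247) stood close enough to the threshold for single libraries to end the call. The GL261 call was lost without the first normoxic or either hypoxic monoculture library (adjusted p = 0.0557 to 0.114), and the BMDM call without any of the 4 monoculture libraries (adjusted p = 0.0836 to 0.145). The values themselves then stayed between -0.39 and -0.32 in GL261 and between -0.56 and -0.48 in BMDM. Both comparisons in which Hdac1 was not called used DMSO. In BV2 with DMSO the libraries overlapped, at 70.2 and 103.7 CPM in normoxia against 55.4 and 71.4 CPM in hypoxia. In BMDM with DMSO they did not overlap, at 92.7 and 93.9 CPM in normoxia against 47.3 and 52.0 CPM in hypoxia, a value of -0.91 ± 0.23 that did not pass the test (edgeR adjusted p = 0.100). Of the 75-base words in the exons of Hdac1, 29.34% also occur in other genes, among them its processed pseudogene Gm10093, which held 2 to 26 counts per library.

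Hdac2 (ENSMUSG00000019777, chr10:36974544-37001889, plus strand), the partner of Hdac1 in the same corepressors, was lower in 5 of the 8 comparisons and had a negative value in all 8. In BV2 alone it went from 85.7 and 83.2 CPM in normoxia to 45.0 and 37.6 CPM in hypoxia. This was a log2 fold change of -1.03 ± 0.12 (edgeR adjusted p = 1.93e-06), which leaves 0.489 of the normoxic level. In co-cultured BV2 the normoxic libraries had 100.1 and 94.4 CPM and the hypoxic libraries 43.8 and 50.8 CPM, a log2 fold change of -1.04 ± 0.12 (edgeR adjusted p = 1.63e-06). The fall of Hdac2 repeated in BV2 with DMSO at -0.81 ± 0.25 (edgeR adjusted p = 0.0281), although leaving out the first hypoxic DMSO, the second normoxic DMSO or the second panobinostat library ended that call (adjusted p = 0.145, 0.176 and 0.0506). The value was -0.45 without the second normoxic DMSO library. In GL261 alone, where Hdac2 was near the top of the order, it had 238.9 and 233.2 CPM in normoxia and 200.2 and 207.9 CPM in hypoxia. Its log2 fold change there was -0.21, with a 95% interval from -0.48 to 0.06. The other calls of Hdac2 were in BMDM alone at -0.59 ± 0.17 (edgeR adjusted p = 0.0299) and in co-cultured GL261 at -0.35 ± 0.13 (adjusted p = 0.0348). The BMDM call was lost without the first normoxic or either hypoxic monoculture library (adjusted p = 0.0964 to 0.176), and the GL261 call without any of the co-culture libraries or the second normoxic monoculture library (adjusted p = 0.0515 to 0.308).

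Hdac3 (ENSMUSG00000024454), the NCoR/SMRT enzyme, kept log2 fold changes between -0.24 and 0.17 over the 8 comparisons. Its 95% interval was -0.42 to 0.10 in BV2 alone, -0.33 to 0.19 in GL261 alone and -0.51 to 0.05 in BMDM alone. Hdac8 (ENSMUSG00000067567), a class I enzyme outside the large corepressors that deacetylates the cohesin subunit Smc3, had positive values in all 8 comparisons and was called in 3. These were co-cultured BV2 at 0.63 ± 0.20 (edgeR adjusted p = 0.0116), GL261 alone at 0.42 ± 0.15 (adjusted p = 0.0397) and co-cultured GL261 at 0.50 ± 0.15 (adjusted p = 0.0163). Each of these Hdac8 calls was lost without certain single libraries. The co-cultured BV2 call ended without the first normoxic or the second hypoxic co-culture library (adjusted p = 0.0520 and 0.358, log2 fold changes of 0.58 and 0.22), and the co-cultured GL261 call without the second normoxic or the second hypoxic one (adjusted p = 0.132 and 0.103). In GL261 alone it ended without either normoxic monoculture, the second hypoxic monoculture or either normoxic co-culture library (adjusted p = 0.0538 to 0.160).

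Class IIa genes held the strongest responses. Hdac7 (ENSMUSG00000022475, chr15:97792664-97844502, minus strand), known for its part in lymphocyte and endothelial development and in macrophage inflammatory signalling, was nearly silent in normoxic BV2 and came on in hypoxia. In BV2 alone it had 0.68 and 1.47 CPM in normoxia, from 16 and 33 counts, and 28.9 and 29.9 CPM in hypoxia, from 490 and 545 counts. The hypoxic libraries were thus all far above the normoxic ones, a log2 fold change of 4.78 ± 0.23 (edgeR adjusted p = 1.49e-10), or 27.4-fold. In co-cultured BV2 it had 1.45 and 1.55 CPM in normoxia and 18.8 and 21.5 CPM in hypoxia, a log2 fold change of 3.74 ± 0.23 (edgeR adjusted p = 1.67e-09). GL261 RNA in the co-cultured libraries would account for 0.409 CPM of the normoxic and 1.12 CPM of the hypoxic level. In BV2 with DMSO, a separate experiment, Hdac7 had 2.09 and 0.835 CPM in normoxia and 24.4 and 18.3 CPM in hypoxia. The log2 fold change of 3.87 ± 0.41 (edgeR adjusted p = 0.000222) lay between those of the other BV2 comparisons.

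In first-experiment BMDM, Hdac7 also rose. BMDM alone had 30.4 and 36.7 CPM in normoxia and 84.9 and 113.6 CPM in hypoxia, without overlap. Hypoxia thus gave a log2 fold change of 1.56 ± 0.22 (edgeR adjusted p = 0.000852), or 2.96-fold. Co-cultured BMDM had 36.6, 48.6 and 35.8 CPM in normoxia and 119.8, 91.1 and 97.9 CPM in hypoxia, a log2 fold change of 1.35 ± 0.18 (edgeR adjusted p = 0.000268). In second-experiment BMDM with DMSO the normoxic libraries had 83.8 and 91.9 CPM and the hypoxic libraries 66.1 and 126.7 CPM, on either side of them. The log2 fold change there was 0.13, with a 95% interval from -0.73 to 1.00. In GL261 alone Hdac7 had 51.8 and 52.1 CPM in normoxia and 52.3 and 48.7 CPM in hypoxia, which overlap. Its interval there ran from -0.35 to 0.27, so a rise of the size in BV2 lies outside it. In co-cultured GL261 it was called at 0.37 ± 0.14 (edgeR adjusted p = 0.0476), a call that ended without the second normoxic co-culture, the second hypoxic co-culture or the first normoxic monoculture library (adjusted p = 0.290, 0.253 and 0.0574). Hdac7 shares 29 exon bases with Slc48a1 on the other strand.

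**Figure D3:**
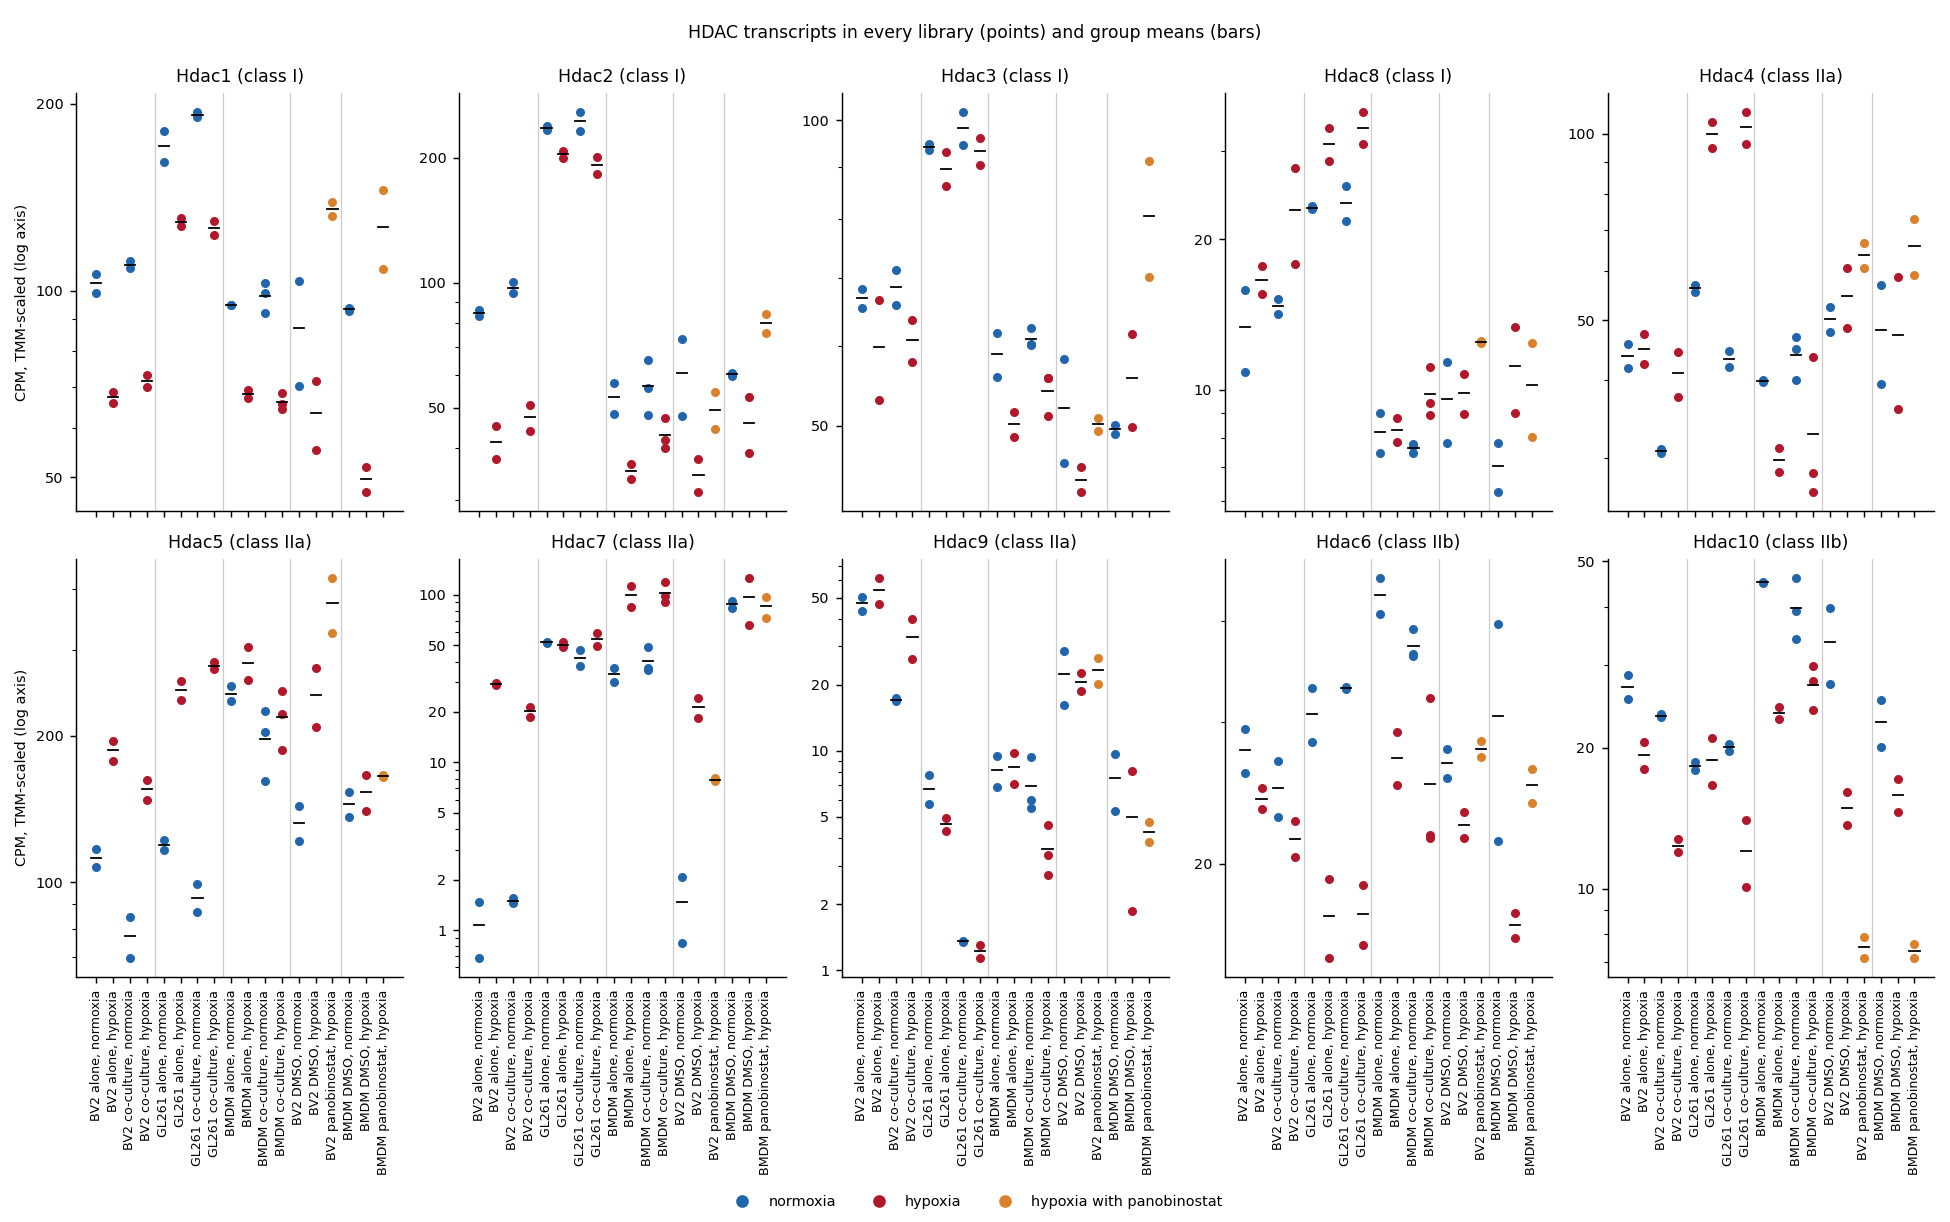
CPM of each HDAC gene (vertical axes, log scale, TMM-scaled) in each of the 38 libraries (points), by group (horizontal axis), with group means as bars and vertical lines between fits. Hdac7 in BV2 goes from 0.68 to 2.09 CPM in the normoxic libraries to 18.3 to 29.9 CPM in the hypoxic libraries without panobinostat.

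Hdac5 (ENSMUSG00000008855, chr11:102194432-102230166, minus strand), a repressor of MEF2 targets that leaves the nucleus when phosphorylated, rose in both lines and was not called in BMDM. In GL261 alone it had 116.6 and 121.8 CPM in normoxia and 258.8 and 236.8 CPM in hypoxia, a log2 fold change of 1.06 ± 0.13 (edgeR adjusted p = 8.16e-05). In co-cultured GL261 it went from 99.0 and 86.8 CPM to 282.9 and 273.9 CPM, the largest hypoxia effect on any HDAC gene in that line at 1.58 ± 0.13 (edgeR adjusted p = 4.16e-06). Hypoxic libraries were above all normoxic ones in both cases. In BV2, Hdac5 rose by 0.73 ± 0.12 alone (edgeR adjusted p = 5.73e-05). In co-cultured BV2 it went from 69.8 and 84.9 CPM to 162.3 and 147.7 CPM, a log2 fold change of 1.00 ± 0.12 (edgeR adjusted p = 2.38e-06). With DMSO it rose in BV2 by 0.87 ± 0.24 (edgeR adjusted p = 0.0169), a call lost without the first normoxic or the first hypoxic DMSO library (adjusted p = 0.0525 and 0.143). In BMDM alone the Hdac5 libraries did not overlap, at 252.6 and 235.2 CPM against 260.1 and 303.9 CPM, yet the log2 fold change of 0.21 did not pass the test (edgeR adjusted p = 0.471).

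Hdac4 (ENSMUSG00000026313, chr1:91928779-92195699, minus strand), the closest relative of Hdac5 in class IIa, rose in GL261 and differed in sign elsewhere. It rose by 0.83 ± 0.12 in GL261 alone (edgeR adjusted p = 0.000327). In co-cultured GL261 it went from 44.5 and 42.0 CPM in normoxia to 108.5 and 96.3 CPM in hypoxia, a log2 fold change of 1.24 ± 0.13 (edgeR adjusted p = 1.47e-05). In BV2 it was called only in co-culture, at 0.42 ± 0.13 (edgeR adjusted p = 0.00808), and not without the first hypoxic co-culture library (0.21, adjusted p = 0.218). In BMDM alone and in co-culture its values were -0.42 and -0.43 (edgeR adjusted p = 0.182 and 0.0853). Without the third hypoxic co-culture library both passed the test, at -0.44 alone and -0.68 in co-culture (adjusted p = 0.0498 and 0.00402). When the monoculture libraries were fitted by themselves the value was -0.44 (adjusted p = 0.0112), and no filter on low counts gave -0.46 in co-culture (adjusted p = 0.0429). The antisense gene Gm26720 overlaps 22.36% of the exon bases of Hdac4. Gm26720 was not found among the counted genes, and use of strand in the authors' counting is not given in the sources used here. Reads of Gm26720 within Hdac4 therefore cannot be told from those of Hdac4.

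Hdac9 (ENSMUSG00000004698, chr12:34047580-34917095, minus strand), a class IIa gene with short forms that lack the catalytic domain, was called higher in co-cultured BV2 and lower in co-cultured BMDM. In co-cultured BV2 the libraries had 16.9 and 17.3 CPM in normoxia and 39.9 and 26.2 CPM in hypoxia, a log2 fold change of 0.95 ± 0.19 (edgeR adjusted p = 0.000284). Without the first hypoxic co-culture library it was 0.54 (adjusted p = 0.0185). In co-cultured BMDM they had 9.39, 5.95 and 5.49 CPM in normoxia and 4.62, 3.35 and 2.71 CPM in hypoxia, a change of -0.98 ± 0.30 (edgeR adjusted p = 0.025). The BMDM call was lost without the first normoxic, the second hypoxic or the third hypoxic co-culture library (adjusted p = 0.0992, 0.0593 and 0.0810). The other 6 values lay between -0.61 and 0.21 and passed no test.

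Both class IIb genes were lower in hypoxia, in partly different cells. Hdac6 (ENSMUSG00000031161, chrX:7930120-7947889, minus strand), the tubulin deacetylase, had negative values in all 8 comparisons and was called in 4. In GL261 alone it fell by 0.84 ± 0.16 on the log2 scale (edgeR adjusted p = 0.00184), and in co-cultured GL261 by 0.93 ± 0.17 (adjusted p = 0.000709). In BMDM it fell by 0.67 ± 0.20 alone (adjusted p = 0.0324) and by 0.57 ± 0.16 in co-culture (adjusted p = 0.0198). The 3 BV2 values lay between -0.25 and -0.20 and were not called. Leaving out any library of BMDM alone ended that Hdac6 call, with adjusted p of 0.0710 to 0.180, and the call in co-cultured BMDM ended without the second or the third hypoxic library (adjusted p = 0.0548 and 0.0636).

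Hdac10 (ENSMUSG00000062906, chr15:89123307-89128700, minus strand), the polyamine deacetylase, fell in 6 of the 8 comparisons. In BV2 with DMSO it went from 39.8 and 27.3 CPM in normoxia to 13.7 and 16.1 CPM in hypoxia, a log2 fold change of -1.17 ± 0.26 (edgeR adjusted p = 0.0063). In BMDM alone it went from 45.0 and 45.2 CPM to 23.1 and 24.4 CPM, a change of -0.93 ± 0.17 (edgeR adjusted p = 0.00375). Hypoxic libraries were below all normoxic ones in both cases. It also fell by 0.49 ± 0.13 in BV2 alone (adjusted p = 0.00409), by 0.92 ± 0.14 in co-cultured BV2 (adjusted p = 2.19e-05), by 0.73 ± 0.19 in co-cultured GL261 (adjusted p = 0.00778) and by 0.55 ± 0.14 in co-cultured BMDM (adjusted p = 0.0113). The BV2 monoculture call was lost without the second hypoxic library (adjusted p = 0.0645), and the GL261 co-culture call without the first hypoxic library (adjusted p = 0.0826). In GL261 alone it had 17.9 and 18.6 CPM in normoxia and 16.7 and 21.0 CPM in hypoxia, with an interval of the log2 fold change from -0.37 to 0.45. The start of Tubgcp6, a gene of the gamma-tubulin complex, lies on the same strand 194 bases beyond the end of Hdac10. Tubgcp6 also fell in BV2 alone, by 1.15 ± 0.14 (edgeR adjusted p = 1.8e-06), and in BMDM alone, by 0.82 ± 0.14 (adjusted p = 0.00267). In GL261 alone Tubgcp6 had a value of 0.32 ± 0.12 (adjusted p = 0.0511).

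BV2 and GL261 libraries of 1 table were also fitted together. In normoxic monoculture 7 of the 10 HDAC genes differed between the lines, where 73.2% of all genes tested did. The median log2 difference of all genes, BV2 minus GL261, was -0.12. Hdac7 was lower in BV2 by 5.48 ± 0.23 on the log2 scale (edgeR adjusted p = 1.12e-13), and Hdac9 was higher in BV2 at 2.92 ± 0.21 (adjusted p = 3.54e-10), from 43.5 and 50.5 CPM against 5.73 and 7.74 CPM in GL261. Hdac2 was lower in BV2 at -1.37 ± 0.12 (adjusted p = 6.9e-09). Of the 7 genes called, 2 were higher and 5 lower in BV2, and the median log2 difference of the 10 HDAC genes was -0.31. The summed class I level was 68.0 ± 3.1 CPM per kb in BV2 and 130.4 ± 5.0 in GL261 (SD, n = 2 each, from separate fits). Neither line was thus higher in every HDAC gene.

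An interaction term tested whether the lines differed in their response to hypoxia, and it called 5 of the 10 HDAC genes and 37.4% of all genes. The median interaction of all genes, BV2 minus GL261, was 0.15. Hdac7 differed by 4.91 ± 0.28 on the log2 scale (edgeR adjusted p = 2.2e-09), with a response of 4.78 in BV2 and of -0.04 in GL261. Hdac2 differed by -0.72 ± 0.17 (adjusted p = 0.00221), with the greater fall in BV2, and Hdac4 by -0.69 ± 0.17 (adjusted p = 0.0034), with the rise in GL261. Hdac6 differed by 0.74 ± 0.21 (adjusted p = 0.00989), with the greater fall in GL261, and Hdac9 by 0.84 ± 0.29 (adjusted p = 0.0301). The call of Hdac9 was lost in 12 of the 16 fits that left out a library, with a value of 0.50 without the second normoxic GL261 monoculture library, and that of Hdac6 in 3, without the first normoxic BV2, the second normoxic GL261 or the first hypoxic GL261 monoculture library. The calls of Hdac7, Hdac2 and Hdac4 were kept in all 16.

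Between BV2 and BMDM, only the second experiment holds both in 1 table, with the fibroblast marker levels given above. In normoxic DMSO 1 of the 10 HDAC genes was called, where 44.2% of all genes were. This was Hdac7, lower in BV2 by 6.09 ± 0.48 on the log2 scale (edgeR adjusted p = 1.49e-05), from 2.09 and 0.835 CPM in BV2 and 83.8 and 91.9 CPM in BMDM. The interaction of hypoxia with cell type called Hdac7 at 3.81 ± 0.58 (adjusted p = 0.0256), and 0.664% of all genes. That interaction call ended when any 1 of 8 of the 12 libraries was left out, with adjusted p of up to 0.131, while the value stayed between 3.27 and 4.60.

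Co-culture was read against monoculture at each oxygen level. These comparisons share the monoculture and co-culture libraries with the hypoxia comparisons. Hdac9 stood lower in co-culture in 5 of the 6 comparisons, and no other HDAC gene was called in more than 1. Calls were rarer here than for hypoxia. The share of all genes called was 14.9% in normoxic and 15.7% in hypoxic BV2, 0.514% and 1.39% in GL261, and 1.64% and 7.11% in BMDM. The HDAC genes called were 3 and 3 in BV2, 1 and 1 in GL261, and 0 and 1 in BMDM.

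In normoxic BV2, Hdac9 had 43.5 and 50.5 CPM alone and 16.9 and 17.3 CPM in co-culture. Co-cultured libraries were well below the others, a log2 fold change of -1.46 ± 0.18 (edgeR adjusted p = 0.000127). In hypoxic BV2 the libraries had 46.7 and 61.7 CPM alone and 39.9 and 26.2 CPM in co-culture, a change of -0.71 ± 0.17 (edgeR adjusted p = 0.00987) that was lost without the second hypoxic library of either group (adjusted p = 0.0800 and 0.0744). Without the first hypoxic co-culture library it was -1.12. In normoxic GL261, Hdac9 went from 5.73 and 7.74 CPM alone to 1.36 and 1.35 CPM in co-culture, from 112 and 145 counts to 21 and 22 counts. The log2 fold change was -2.30 ± 0.29 (edgeR adjusted p = 0.009), and the difference did not pass the test without the second monoculture or either co-culture library (adjusted p = 0.0840 to 0.118). In hypoxic GL261 it went from 4.92 and 4.34 CPM to 1.14 and 1.30 CPM, a change of -1.92 ± 0.29 (edgeR adjusted p = 0.0109). Without the first hypoxic co-culture library the adjusted p was 0.0598. BV2 cells held more Hdac9 than GL261 cells. From the median partner share, BV2 RNA in the GL261 co-cultures was estimated to add 0.367 CPM in normoxia and 0.125 CPM in hypoxia. The part of this RNA in the difference was not tested.

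In hypoxic BMDM, Hdac9 had 7.06 and 9.81 CPM alone and 4.62, 3.35 and 2.71 CPM in co-culture. The log2 fold change was -1.25 ± 0.32 (edgeR adjusted p = 0.0423), close to the threshold, and it passed the test in only 3 of the 10 fits that left out a library. Adjusted p in the other 7 ran from 0.0508 to 0.321. In normoxic BMDM the Hdac9 libraries overlapped, at 9.52 and 6.86 CPM against 9.39, 5.95 and 5.49 CPM, and the interval of the log2 fold change ran from -0.92 to 0.45.

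**Figure D4:**
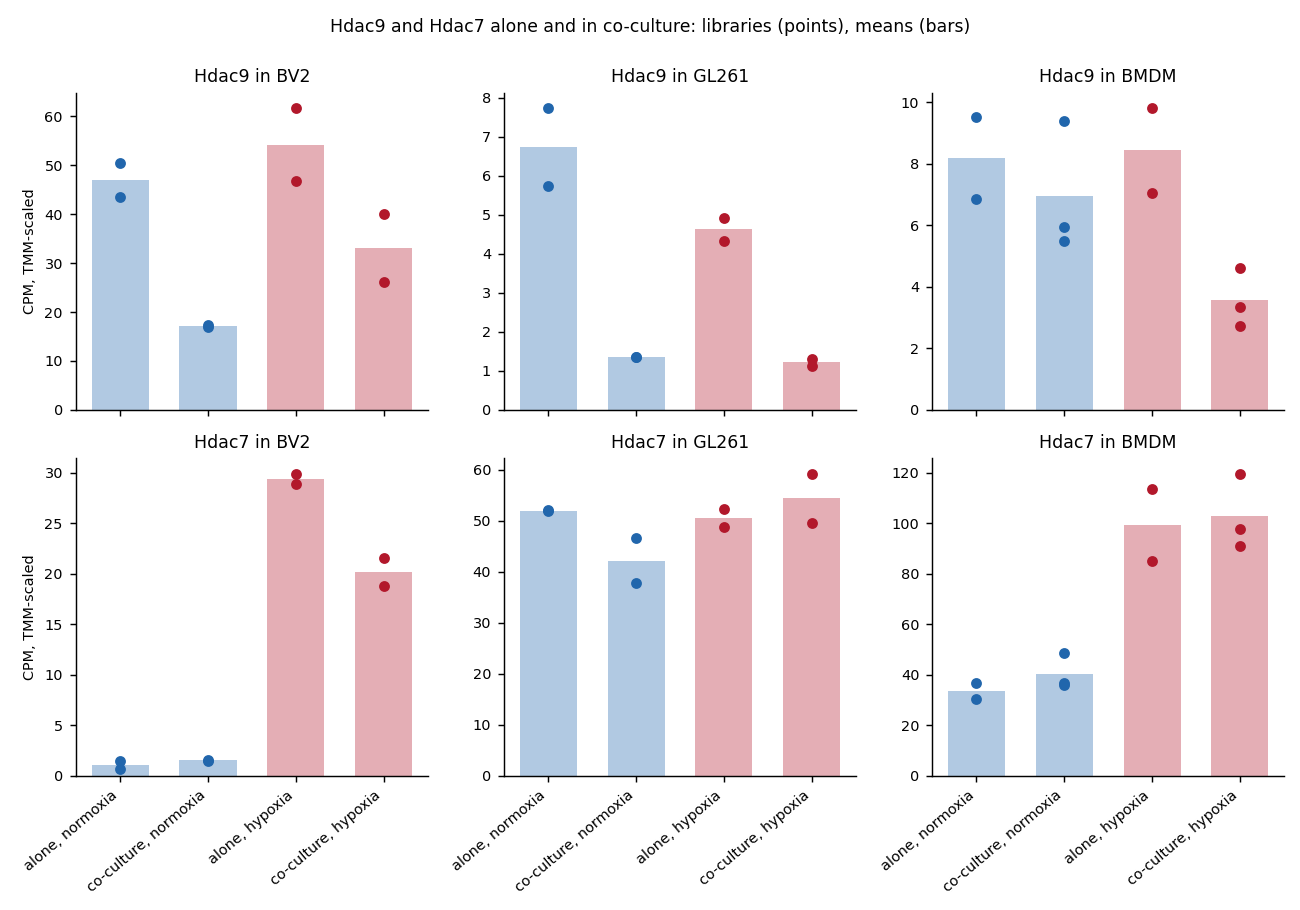
TMM-scaled CPM (vertical axes, from 0, on separate scales) of Hdac9 (top) and Hdac7 (bottom) in BV2, GL261 and BMDM, alone or in co-culture, in normoxia (blue) or hypoxia (red), with a point per library and bars for group means. Hdac9 in GL261 is at 4.34 to 7.74 CPM alone and 1.14 to 1.36 CPM in co-culture.

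Among the BV2 libraries co-culture also gave smaller calls. In normoxia Hdac4 fell by 0.51 ± 0.12 on the log2 scale (edgeR adjusted p = 0.0132) and Hdac5 by 0.54 ± 0.12 (adjusted p = 0.00915). In hypoxia Hdac7 fell by 0.55 ± 0.17 (adjusted p = 0.0358) and Hdac10 by 0.64 ± 0.14 (adjusted p = 0.00451). The Hdac5 call was lost without the first normoxic co-culture library (adjusted p = 0.128), the Hdac4 call without that library, the second normoxic co-culture or the second normoxic monoculture library (adjusted p = 0.0718 to 0.125), and the Hdac7 call without either hypoxic monoculture or the first hypoxic co-culture library (adjusted p = 0.0575 to 0.0920). The Hdac7 call was also lost when genes higher in the partner cells were removed (adjusted p = 0.0647) and with a mean of at least 5 CPM (adjusted p = 0.0588). An interaction term in each cell kind tested whether co-culture altered the hypoxia effect, and 0 of the 10 HDAC genes were called in any. All genes were called at 2.19% in BV2, 0% in GL261 and 0% in BMDM. At an unadjusted p under 0.05 the interactions held 4 HDAC genes in BV2, 3 in GL261 and 1 in BMDM. Of all genes tested, 2865 of 14432, 1354 of 15189 and 636 of 14806 lay under the same cut-off. DESeq2's Wald test called 0, 0 and 0 of the HDAC genes. For Hdac9 the interaction was 0.74 in BV2 with an interval from 0.21 to 1.28, and -1.02 in BMDM with an interval from -2.01 to -0.02, of which neither passed the test.

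Panobinostat was compared with DMSO in hypoxia. This comparison shares its hypoxic DMSO libraries with the hypoxia comparison of the same experiment, and no panobinostat group in normoxia was analysed here. In BV2, Hdac1 rose and Hdac7 and Hdac10 fell, 3 of the 10 HDAC genes, where 14.6% of all genes were called. As a check of the drug, 2 of 3 genes known to rise with HDAC inhibitors were higher in BV2. These were H1f0, a linker histone, at 1.74 ± 0.30 (edgeR adjusted p = 0.00747), and Txnip at 1.64 ± 0.22 (adjusted p = 0.00319), while Cdkn1a had a value of -0.29. In BMDM none of the 3 passed the test. Their values there were 0.96 ± 0.47 for H1f0, -0.10 ± 0.41 for Txnip and -0.23 ± 0.51 for Cdkn1a (edgeR adjusted p = 0.254, 0.894 and 0.804). In BV2 the summed macrophage markers were 2012 to 2215 CPM with DMSO in hypoxia and 1365 to 1613 CPM with panobinostat. Their part in the result was not tested.

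With panobinostat, Hdac1 in BV2 went from 55.4 and 71.4 CPM to 139.0 and 131.9 CPM. The treated libraries were above all 4 BV2 libraries with DMSO, and the log2 fold change was 1.09 ± 0.24 (edgeR adjusted p = 0.017). The other class I genes of BV2 did not pass the test. Hdac2 went from 31.2 and 37.6 CPM to 44.3 and 54.4 CPM, a value of 0.52 with an interval from -0.04 to 1.08. Hdac3 went from 43.0 and 45.5 CPM to 50.9 and 49.5 CPM, and Hdac8 from 8.96 and 10.8 CPM to 12.4 and 12.5 CPM. All 3 were higher in both treated libraries than in both DMSO libraries, by less than the test could tell from the spread. How many of all genes separate in this way was not counted, so the separation says nothing particular about these 3.

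Among class IIa genes in BV2, Hdac7 went from 24.4 and 18.3 CPM with DMSO to 7.73 and 8.07 CPM with panobinostat, a log2 fold change of -1.43 ± 0.35 (edgeR adjusted p = 0.0257). The treated level lay between the normoxic and the hypoxic DMSO libraries. Hdac5 went from 275.9 and 208.3 CPM to 422.5 and 325.1 CPM, a value of 0.63 that did not pass the test (adjusted p = 0.102), with no overlap between the groups. Hdac4 went from 60.8 and 48.6 CPM to 66.7 and 60.8 CPM. Hdac9 went from 22.6 and 18.8 CPM to 26.7 and 20.1 CPM, which overlap. By edgeR's test without a replicate block, Hdac7 alone of the 4 class IIa genes was called.

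Of the class IIb genes in BV2, Hdac10 fell from 13.7 and 16.1 CPM to 7.89 and 7.14 CPM, a log2 fold change of -0.99 ± 0.27 (edgeR adjusted p = 0.0367). Hdac6 went from 21.5 and 23.2 CPM to 28.4 and 27.1 CPM, a value of 0.31 with an interval from -0.15 to 0.77. Side by side in BV2, hypoxia with DMSO and panobinostat in hypoxia gave -0.46 and 1.09 for Hdac1, 3.87 and -1.43 for Hdac7, and -1.17 and -0.99 for Hdac10. The neighbour Tubgcp6 had a value of -0.21 ± 0.21 with panobinostat (adjusted p = 0.528). All 3 BV2 calls were lost without either panobinostat library, at adjusted p of 0.0749 to 0.196 and log2 fold changes of 1.05 and 1.13 for Hdac1, -1.40 and -1.46 for Hdac7 and -1.06 and -0.92 for Hdac10. The Hdac1 and Hdac7 calls were also lost without the first hypoxic DMSO library (adjusted p = 0.0805 and 0.0700), and the Hdac10 call without the second (adjusted p = 0.106).

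In BMDM, no gene of the 14914 tested was called with panobinostat by edgeR, 0% of all genes. At an unadjusted p under 0.05 there were 3 HDAC genes and 3868 genes in all, and DESeq2's Wald test called 2 HDAC genes and 2221 genes in all. Hdac1 went from 47.3 and 52.0 CPM to 108.3 and 145.0 CPM, a value of 1.35 ± 0.24 (edgeR adjusted p = 0.0633). Hdac10 went from 14.6 and 17.2 CPM to 7.12 and 7.63 CPM, a value of -1.10 ± 0.28 (edgeR adjusted p = 0.0882). Neither pair of groups overlapped, and these are the HDAC genes that DESeq2 called, at adjusted p of 0.000101 and 0.016.

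The other class I genes of BMDM ran in the same treated libraries as follows. Hdac2 went from 53.1 and 38.9 CPM to 84.2 and 75.6 CPM, a value of 0.80 ± 0.24. Hdac3 went from 61.6 and 49.8 CPM to 91.1 and 70.0 CPM, a value of 0.53 ± 0.24. Hdac8 went from 13.4 and 8.97 CPM to 12.4 and 8.06 CPM, which overlap. Of class IIa, Hdac4 went from 36.0 and 58.7 CPM to 72.8 and 59.1 CPM, Hdac5 from 140.0 and 166.2 CPM to 166.2 and 164.6 CPM, Hdac7 from 66.1 and 126.7 CPM to 97.7 and 72.9 CPM, and Hdac9 from 1.86 and 8.09 CPM to 3.82 and 4.72 CPM. Hdac6 went from 17.4 and 16.2 CPM to 23.8 and 26.2 CPM. The Hdac5, Hdac7 and Hdac9 groups overlapped, and the intervals of the log2 fold change ran from -0.45 to 0.67, -1.04 to 0.69 and -1.96 to 1.56.

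Whether the drug acted differently on the HDAC genes of BV2 and BMDM was tested as an interaction. It called 0 of the 10, and 0.0251% of all genes. At an unadjusted p under 0.05 it held 1 of the 10 and 1793 of all 15955 genes tested. DESeq2's Wald test called 0 of the 10. For Hdac7 the difference was -1.28, BV2 minus BMDM, with an interval from -2.47 to -0.08 (edgeR adjusted p = 0.417). For Hdac1 it was -0.27 with an interval from -1.01 to 0.47, and for Hdac10 0.11 with an interval from -0.75 to 0.97. These intervals do not show that the 2 cell kinds respond alike.

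**Figure D5:**
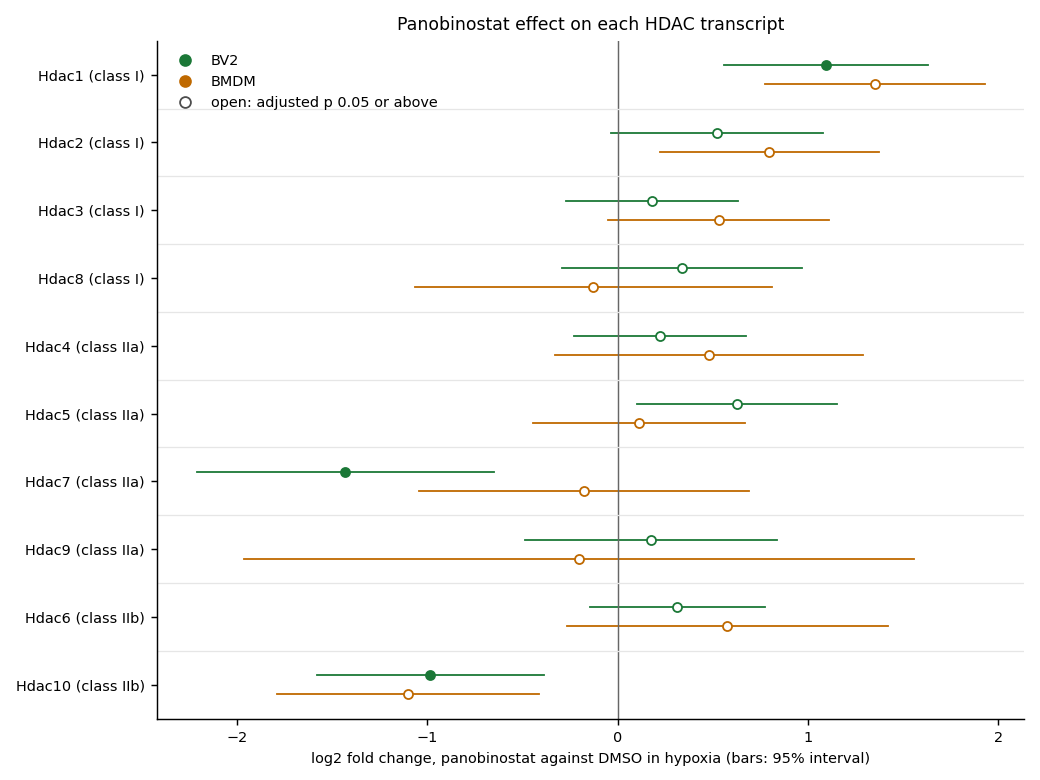
Log2 fold change of panobinostat against DMSO in hypoxia (horizontal axis) for each HDAC gene (vertical axis) in BV2 (green) and BMDM (brown), with 95% intervals as bars, filled where edgeR's adjusted p was under 0.05. Hdac1 lies at 1.09 and 1.35 and Hdac10 at -0.99 and -1.10 in BV2 and BMDM.

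The proteins that HDACs work with were followed in lists taken from textbook membership. Of the 10 CoREST genes, which build the complex of Hdac1, Hdac2 and the demethylase Kdm1a, 6 rose and 2 fell in BV2 alone, 6 rose and 1 fell in GL261 alone, and 3 rose in BMDM alone. Of all genes 61.9%, 44.6% and 23.9% were called in these 3 comparisons, and a list's share near these values says nothing particular about the list. The list's median log2 fold change was 0.75, 0.59 and 0.42, against 0.00, -0.03 and 0.03 over all genes tested. Rcor2, a scaffold of the complex, rose by 1.87 ± 0.16 in BV2, 1.55 ± 0.16 in GL261 and 4.90 ± 0.37 in BMDM (edgeR adjusted p = 6.69e-08, 2.55e-05 and 1.81e-05). Phf21a, its reader of unmethylated histone H3, rose by 2.06, 0.78 and 1.09. Kdm1a itself fell by 0.43 in BV2.

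Genes of the Sin3 and NuRD lists were called in both directions, beside 61.9% of all genes called in BV2 alone. Of 14 Sin3 genes tested in BV2 alone 5 rose and 5 fell, and of 11 NuRD genes 1 rose and 5 fell. The histone-binding subunits Rbbp7 and Rbbp4, which belong to both lists, fell in BV2 by 1.39 ± 0.12 and 1.15 ± 0.11 on the log2 scale (edgeR adjusted p = 4.64e-08 and 1.19e-07). Rbbp7 also fell in GL261 and BMDM alone, by 0.48 and 1.23. Of the 5 NCoR/SMRT genes, partners of Hdac3, 1 fell in BV2 alone, 3 rose in GL261 alone and 1 fell in BMDM alone. Of the 6 MiDAC and MIER genes 4, 3 and 1 rose in BV2, GL261 and BMDM alone, with Elmsan1 at 0.92, 2.14 and 0.95.

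Counts for the partners of class IIa proteins stand beside the same 61.9%, 44.6% and 23.9% of all genes called in BV2, GL261 and BMDM alone. Of the 4 MEF2 factors 3 rose and 1 fell in BV2 alone, 4 rose in GL261 alone and 1 rose in BMDM alone. Mef2b rose by 2.01 ± 0.31 in BV2 and 2.34 ± 0.23 in GL261, and Mef2c fell by 0.79 ± 0.13 in BV2 (edgeR adjusted p = 3.01e-05, 2.09e-05 and 5.98e-05). Of the 7 genes of 14-3-3 proteins, which hold class IIa HDACs in the cytoplasm, 5 fell in BV2 alone and 5 in GL261 alone, and 0 were called in BMDM alone. Their median log2 fold change was -0.79, -0.45 and -0.07. Ywhae fell by 1.24 ± 0.11 in BV2 (edgeR adjusted p = 1.13e-07).

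Among opposing enzymes, 5 of 13 histone acetyltransferase genes rose and 3 fell in BV2 alone, and 5 rose and 1 fell in GL261 alone, beside 61.9% and 44.6% of all genes called. Kat6b rose by 1.80 ± 0.14 in BV2 and 1.89 ± 0.24 in BMDM alone (edgeR adjusted p = 1.85e-08 and 0.000497), and by 1.94 ± 0.23 in BV2 with DMSO. Kat2a went the other way, at -1.18 ± 0.13 in BV2, -0.72 ± 0.12 in GL261 and -0.86 ± 0.19 in BMDM alone. Hat1 was also called lower, at -1.27 ± 0.14 in BV2 and -0.91 ± 0.24 in BMDM alone. With panobinostat in hypoxic BV2, 0 of the 13 rose and 3 fell, beside 14.6% of all genes called, with a list median of -0.47 against -0.01 over all genes, and Kat6b fell by 0.90 ± 0.22 (edgeR adjusted p = 0.0274). Of the other deacetylases, Sirt2 rose by 1.17 ± 0.11 and Sirt6 by 1.07 ± 0.14 in BV2 alone, and by 1.01 ± 0.23 and 0.87 ± 0.25 in BMDM alone. Sirt1, a NAD-dependent deacetylase, fell by 1.39 ± 0.28 with panobinostat in BV2 (edgeR adjusted p = 0.0129), as did Chd3, a NuRD helicase, by 1.67 ± 0.23 (adjusted p = 0.00325).

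Over the 18 group means, centred within each fit, Hdac1 and Hdac2 had the highest positive correlation of any pair of HDAC genes (Pearson r = 0.80). The pair farthest from 0 was Hdac2 and Hdac7, of opposite sign (r = -0.86). Hdac4 and Hdac5 followed at 0.74, behind Hdac1 and Hdac6 at 0.75. Among 5648 well expressed genes, those most like Hdac7 were C9orf72, Fam114a1 and Anxa2 (r = 0.97, 0.96 and 0.96), and those most like Hdac10 were Clcc1, Pkmyt1 and Cnpy3 (r = 0.95, 0.95 and 0.94). The genes most like Hdac9 reached only 0.68 for Ift140, 0.66 for Ppp1r18 and 0.63 for Myo5a. These are descriptions without a test, over groups that share fits and treatments.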

How the data were processed

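RNA of 38 libraries was analysed from the authors' 3 tables of raw read counts per Ensembl gene. For the deposited counts, the submitters' processing notes name Trimmomatic 0.36, STAR 2.6, SAMtools, HTSeq 0.9.1, deepTools and the build mm10, and Picard 2.17.1 for 16 libraries, with no role or order. The annotation release and the use of strand are not given in the sources used here. Library totals were 9634700 to 27238933 counts. The 22 pairs of replicates all differed by more than sampling noise, with chi-square per degree of freedom of at least 6.70.

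Genes were kept with edgeR's filterByExpr (minimum count 10, minimum total 15), and counts were scaled with TMM factors. The 5 single-cell-type fits covered BV2, GL261 and BMDM of the first experiment and BV2 and BMDM of the second, and 2 joint fits compared cell kinds within 1 table. Levels were scaled within each fit, and CPM printed for 2 cell kinds side by side come from their separate fits. Tests between cell kinds used the joint fits. Tests were edgeR 4.0.16 quasi-likelihood tests (R 4.3.3, limma 3.58.1) with Benjamini-Hochberg adjustment over all genes tested, and the script was tested on simulated data. Log2 fold changes carry the SE of the fitted contrast and 95% intervals.

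All 10 HDAC genes are described for hypoxia and for panobinostat. For co-culture and for comparisons between cell kinds, only some of the HDAC genes are named. Values per library are given for genes past the threshold that changed at least 2-fold, for all of them with panobinostat, and for others where they bear on a description. Of each partner list, at most 2 risen and 2 fallen genes are named. The genes and lists were chosen with earlier results of these data known. Alternatives were other size factors, DESeq2 1.42.0, other filters on low counts, a replicate block, fits of only the groups compared, removal of genes that the partner cell expressed at least 4-fold more, and leaving out each library.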

Additional observations from a re-analysis of the deposited data

Results flagged for a closer look

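The 6 results listed here are differences between cell kinds in the response to hypoxia that passed a test of the difference itself, edgeR's interaction term with Benjamini-Hochberg adjustment over all genes. No group had the 4 libraries needed to look for a sample far from the others.

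Between BV2 and GL261 in monoculture, given as BV2 minus GL261 on the log2 scale, the response differed by 4.91 for Hdac7, -0.72 for Hdac2, -0.69 for Hdac4, 0.74 for Hdac6 and 0.84 for Hdac9. The responses behind these values were 4.78 in BV2 and -0.04 in GL261 for Hdac7, -1.03 and -0.21 for Hdac2, 0.04 and 0.83 for Hdac4, -0.20 and -0.84 for Hdac6, and 0.21 and -0.54 for Hdac9. The share of all genes called in this test was 37.4%.

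Between BV2 and BMDM with DMSO the response of Hdac7 differed by 3.81, from 3.87 in BV2 and 0.13 in BMDM. The second-experiment BMDM libraries carried the fibroblast marker RNA described above, whose part in this difference was not tested.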

How the results depend on the processing

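The direction of no log2 fold change of a called HDAC gene reversed under any alternative run. Counts of HDAC genes in this section stand without the share of all genes called in the same run. They therefore say nothing particular about HDAC genes. DESeq2 size factors changed no call among 240 tests of a gene in a comparison. DESeq2's Wald test called 2 HDAC genes with panobinostat in BMDM where edgeR called 0, 1 with hypoxia in DMSO-treated BMDM (0 by edgeR), and 2 between BV2 and BMDM in normoxic DMSO (1 by edgeR). With no filter beyond 1 count, the calls were 2 for the co-culture by hypoxia interaction in BV2 (0 with the filter), 2 for co-culture in hypoxic GL261 (1 with it), 1 for panobinostat in BMDM (0 with it) and 2 between BV2 and BMDM (1 with it). With a mean of at least 5 CPM, 0 were called for co-culture in normoxic GL261, in hypoxic GL261 and in hypoxic BMDM, in place of 1 each. Hdac9 itself was below that mean in GL261. It was also left out of GL261 when genes that the partner expressed at least 4-fold more were removed, which gave 0 calls for co-culture in normoxic and in hypoxic GL261, and 0 in hypoxic BMDM. Single hypoxia and line calls were lost too. With no filter these were Hdac1 in GL261 alone (adjusted p = 0.0940), Hdac2 in co-cultured GL261 (0.151), Hdac4 in co-cultured BV2 (0.0527) and Hdac3 between BV2 and GL261 (0.0712). With a mean of at least 5 CPM they were Hdac8 in GL261 alone (0.0643) and Hdac7 in co-cultured GL261 (0.0893), and also Hdac10 with panobinostat in BV2 (0.0503) and Hdac7 for co-culture in hypoxic BV2 (0.0588). Fits of only the groups compared called 3 with hypoxia in GL261 alone (5 in the full fit), 0 for co-culture in hypoxic GL261 and in hypoxic BMDM (1 each), 2 between BV2 and BMDM (1), and 0 for the hypoxia interaction of BV2 and BMDM (1), where Hdac7 had 3.81 at an adjusted p of 0.0915. That setting was not run for the 3 co-culture interactions, whose fit already holds only their groups. The cause of these moves was not tested.

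With a replicate block, 5 HDAC genes were called with panobinostat in BV2 (3 without it), 2 with panobinostat in BMDM (0), 1 with hypoxia in DMSO-treated BMDM (0), 2 for co-culture in hypoxic GL261 (1) and 2 between BV2 and BMDM (1), and no call was lost. The share of all genes called with the block is not given beside these counts. The genes added were Hdac5 at 0.63 and Hdac2 at 0.52 with panobinostat in BV2 (adjusted p = 0.0272 and 0.0424), Hdac1 at 1.34 and Hdac10 at -1.10 with panobinostat in BMDM (0.0252 and 0.0427), Hdac1 at -0.91 with hypoxia in DMSO-treated BMDM (0.0403), Hdac10 at -0.64 for co-culture in hypoxic GL261 (0.0497) and Hdac9 at 1.96 between BV2 and BMDM (0.00935). The labels do not say that a number marks a shared culture or day, and with 2 or 3 numbers a fit the block is a hint only. Libraries of the same number correlated in their deviations with a mean r of 0.033 (BV2), 0.18 (GL261) and 0.15 (BMDM) in the first experiment, and 0.30 (BV2) and 0.45 (BMDM) in the second.

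Leaving out 1 library at a time, the count of HDAC genes called with hypoxia ran from 4 to 6 in BV2 alone, 7 to 8 in co-cultured BV2, 3 to 5 in GL261 alone, 5 to 8 in co-cultured GL261, 2 to 6 in BMDM alone, 4 to 6 in co-cultured BMDM and 2 to 4 in BV2 with DMSO. The co-culture count ran from 1 to 3 in normoxic and in hypoxic BV2, from 0 to 1 in normoxic and in hypoxic GL261 and from 0 to 1 in hypoxic BMDM, and that of its interaction in BV2 from 0 to 1. The panobinostat count in BV2 ran from 0 to 3. Between BV2 and GL261 it ran from 5 to 7, and 3 to 5 for the interaction. Between BV2 and BMDM it ran from 1 to 2, and 0 to 1 for the hypoxia interaction. It was 0 throughout for hypoxia and panobinostat in second-experiment BMDM, co-culture in normoxic BMDM, the other co-culture interactions and the panobinostat interaction. Of all tests of a gene under an alternative, 3588 kept their side of the threshold, 116 lost it and 32 gained it. The rise of Hdac7 with hypoxia in BV2 and first-experiment BMDM was called under each alternative run.

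With 2 libraries in most groups, small changes could not be told from spread, most of all in second-experiment BMDM, where the coefficient of variation was 0.381. Hdac7 in normoxic BV2 rested on 12 to 33 counts and Hdac9 in co-cultured GL261 on 18 to 23 counts, so their fold changes carry counting error on top of the spread.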
